A study of Mus musculus with 16 samples.

Results

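RNA of cortical synaptosomes from mice of 19 months was compared with that from mice of 3 weeks. Synaptosomes are nerve endings that shear off and seal when brain is homogenised, often with a patch of the partner neuron's membrane still joined to them. Both groups came from the cerebral cortex of C57BL/6 mice, with 4 libraries at 19 months and 4 at 3 weeks, labelled as biological replicates of each age. The members are these 8 of the 16 libraries of the series, chosen by age and fraction alone, and all genes of their count table. The labels name no treatment and no genetic change in either group. The 4 synaptosome libraries of 5 months (SYN) entered the same model, and 4 libraries of total cortical homogenate of 5 months (TH) served only to describe where genes lie between the fractions. Ages are given by the labels. The p-values for gene levels weigh a difference between groups against the spread between libraries, including those of 5 months.

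Synapses keep a local pool of RNA, delivered along axons and dendrites, from which some of their proteins are made on site. Between weaning and old age the rodent cortex completes myelination, the wrapping of axons by oligodendrocytes. Growing neurites and precursor cells become fewer, and microglia, the resident immune cells, gain activity. A synaptosome preparation also holds pieces of myelin and of the fine processes of astrocytes, microglia and oligodendrocytes, so these transcripts are measured beside those of neurons. In bulk libraries such as these, fewer cells of a type and less RNA per cell cannot be told apart.

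The table gave counts for 48709 genes. Total counts, in megacounts, were 17.7, 20.4, 21.7 and 16.9 for 3 weeks replicates 1 to 4, and 15.5, 14.2, 10.9 and 10.6 for 19 months. With genes of the mitochondrial genome set aside, 6.56 to 11.0 megacounts remained per library. The mitochondrial rRNAs took 47.0% ± 4.00 of the counts at 3 weeks and 37.9% ± 9.58 at 19 months (mean ± SD, n = 4 each), a difference of -9.04 percentage points (two-sided exact permutation test over 70 groupings, p = 0.143, where 0.0286 is the smallest value possible). One 19 months library, replicate 1, stood apart. Its mitochondrial rRNA share was 52.3%, against 32.9% to 33.6% in the other 3, and it held 92 counts of Xist, which coats the silenced X chromosome, at 7.17 CPM (counts per megacount after scaling), while the other 11 synaptosome libraries were under 1 CPM. Its level of the Y-linked gene Ddx3y, 20.9 CPM, was near the 21.7, 21.7 and 22.6 CPM of its group. Without it the difference in mitochondrial rRNA share was -13.8 points (exact permutation p = 0.0286). Replicate 1 also had the highest share of its age at 3 weeks, 51.7%, and at 5 months, 45.3%.

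Of 15344 genes tested, 1534 were higher at 19 months (10.0%) and 1448 were lower (9.44%), or 19.4% in all, at a Benjamini-Hochberg adjusted p under 0.05 (edgeR quasi-likelihood test). The median log2 fold change over all genes tested was 0.00273. Without 19 months replicate 1 the counts were 1485 higher and 1286 lower. Most changes were small. A fold of at least 2 was reached by 405 higher and 195 lower genes. The 405 higher genes were mostly scarce, with a median level of 1.87 CPM, and 142 of them (35.1%) were noncoding, against 6.07% of all genes tested. The 195 lower genes had a median of 4.96 CPM, and 178 (91.3%) coded for protein. The CPM of the 4 libraries of each age did not overlap for 22.8% of the genes tested, and for 2465 of the 2982 called genes. Genes named below for the highest and lowest fold changes, such as Gsn, Mki67, C4b, Omp and S100a5, were picked only from genes without overlap. For them the lack of overlap is a condition of the choice and not a result. The first principal component of the 12 synaptosome libraries, with 32.1% of the variance, set the 3 weeks libraries, between -38.2 and -30.3, apart from those of 19 months, between 10.7 and 18.6, and of 5 months, between 17.1 and 22.4. The 19 and 5 months libraries overlapped on it.

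**Figure D1:**
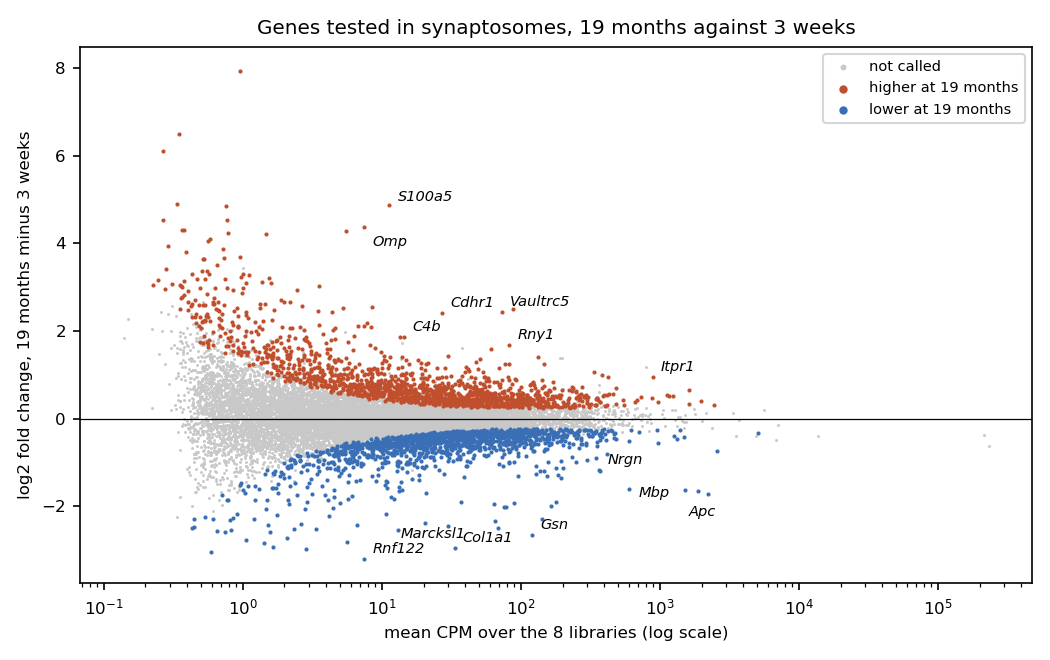
Each point is 1 of 15344 tested genes, with its mean CPM over the 8 libraries on a log axis and its log2 fold change (19 months minus 3 weeks) on the vertical axis. Red marks the 1534 higher and blue the 1448 lower genes. The largest rises lie at low CPM, and Mbp and Apc stand out among the abundant lower genes.

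Myelin transcripts were lower in the old synaptosomes. Of 29 structural myelin and mature oligodendrocyte genes, all tested, 16 were lower at 19 months, 2 were higher, and the median log2 fold change was -1.42, against 0.00273 over all genes. Gsn encodes gelsolin, an actin-severing protein that is abundant in oligodendrocytes (chromosome 2, 35256380 to 35307892, plus strand, GRCm38). It measured 149, 216, 233 and 236 CPM in the 3 weeks libraries and 32.1, 38.8, 33.0 and 27.5 CPM at 19 months. Every old library lay below every young one, and the log2 fold change was -2.66 (SE 0.13, edgeR adjusted p = 1.65e-13). Mbp, myelin basic protein, which compacts the myelin sheath, fell from 2162, 2041, 2892 and 2047 CPM to 653, 862, 778 and 642 CPM, again with no overlap (log2 fold change -1.64 with SE 0.12 and an edgeR adjusted p of 2.4e-10). Cldn11, the tight-junction claudin of myelin, fell by 2.49 on the log2 scale. Mog and Mag, which sit on the outermost and innermost myelin surfaces, fell by 2.46 and 2.30, and the myelin enzyme Cnp by 1.98. The groups did not overlap for any of these 6 genes, which the naming rule required of Gsn, Cldn11 and Mog.

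The myelin list did not move as a whole. Plekhb1 rose by 0.38, and Hapln2, a link protein of the extracellular matrix at nodes of Ranvier, was 1.32, 2.73, 2.92 and 2.10 CPM at 3 weeks and 4.68, 5.52, 8.92 and 5.83 CPM at 19 months, a rise of 1.44 on the log2 scale (SE 0.26, edgeR adjusted p = 0.000185). Summed over the list, the young libraries lay between 7102 and 10256 CPM and the old ones between 2557 and 3544 CPM. The 5 months synaptosomes lay between 2599 and 3287 CPM, inside the range of the old libraries, and no member was called between 19 and 5 months.

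Markers of oligodendrocyte precursors and of newly formed oligodendrocytes fell as well. Of 21 such genes, 13 were lower, none was higher, and all 21 fold changes were below 0 (median -0.78). Summed over the list, the libraries lay between 1412 and 1585 CPM at 3 weeks and between 908 and 1032 CPM at 19 months. Those of 5 months lay between 968 and 1031 CPM, and no member was called between 19 and 5 months. Gpr17, a receptor carried by precursors on the point of maturing, measured 116, 110, 113 and 147 CPM at 3 weeks and 31.9, 31.0, 32.1 and 24.9 CPM at 19 months (log2 fold change -2.02 with SE 0.11 and an edgeR adjusted p of 3.46e-13). The groups were far apart and each was tight, apart from 1 library in each. Enpp6, a phosphodiesterase of newly formed oligodendrocytes, fell by 2.55 and Olig1, a lineage transcription factor, by 1.07. Pdgfra, the growth factor receptor of the earlier precursors, fell less, from 65.2, 59.9, 54.1 and 60.3 CPM to 34.9, 46.0, 53.1 and 35.9 CPM (log2 fold change -0.49 with SE 0.11 and an edgeR adjusted p of 0.00237).

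**Figure D2:**
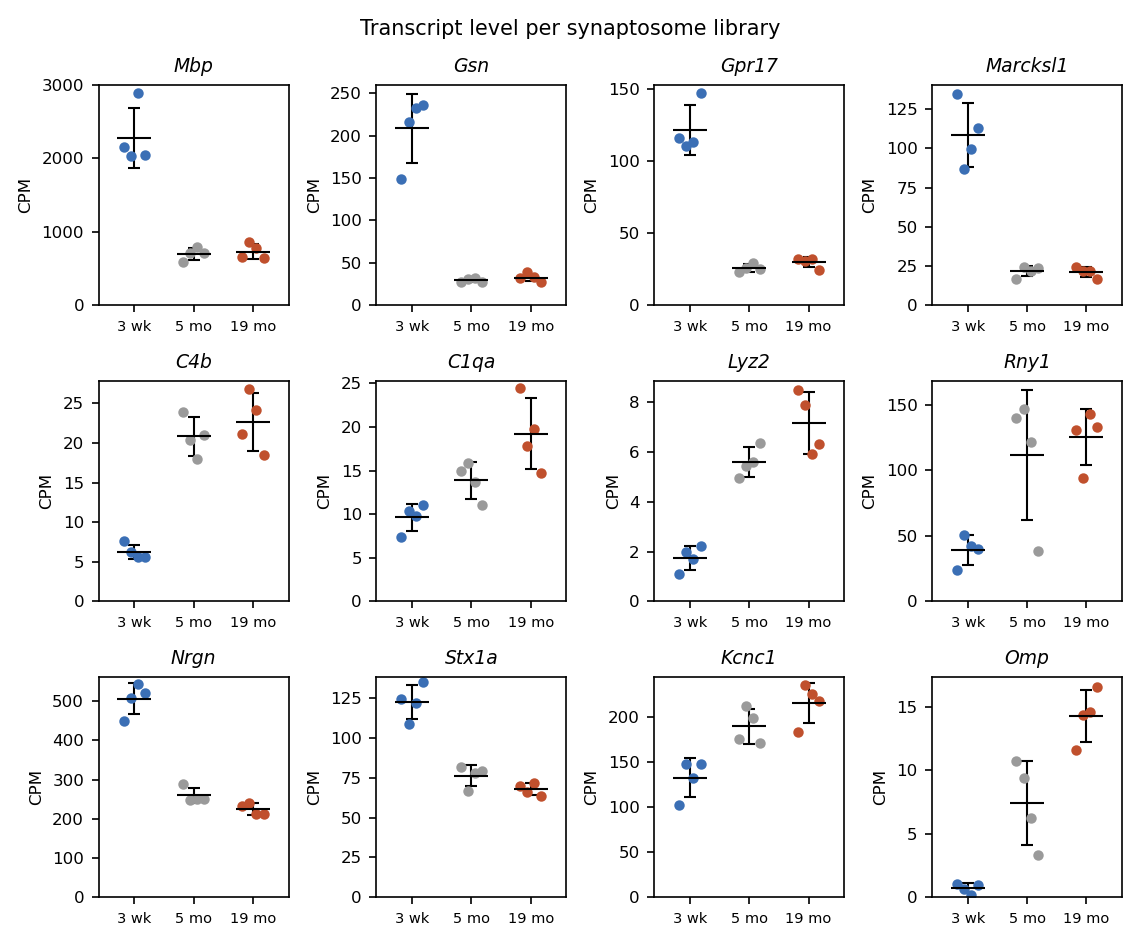
CPM of 12 genes in each of the 12 synaptosome libraries (points) with the mean and SD of each group (n = 4), by age in weeks (wk) or months (mo); each panel has its own axis from 0. The 3 weeks points lie above the 19 months points for Mbp, Gsn, Gpr17, Marcksl1, Nrgn and Stx1a, and below them for C4b, C1qa, Lyz2, Rny1, Kcnc1 and Omp.

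Genes of growing neurites were lower in the old synaptosomes. Of 38 genes of axon growth and neuronal maturation, 24 were lower and none was higher, with a median of -0.62. Without 19 months replicate 1, 23 were lower and 1 was higher. The list median was already -0.53 at 5 months against 3 weeks and was 0.003 at 19 against 5 months. No member was called between 19 and 5 months. Marcksl1, an actin-binding protein of growing processes (chromosome 4, 129513581 to 129515985, plus strand), fell from 135, 87.0, 99.7 and 113 CPM to 24.3, 22.2, 22.1 and 17.0 CPM (log2 fold change -2.34 with SE 0.14 and an edgeR adjusted p of 4.26e-12). Sema6a, a membrane-bound guidance cue, fell by 1.31. Tuba1a and Stmn2, a tubulin and a microtubule regulator of growing axons, fell by 1.07 and 1.02. Dcx, the microtubule protein of migrating and immature neurons, measured 36.3, 25.5, 21.5 and 23.1 CPM at 3 weeks and 19.4, 16.3, 11.4 and 13.7 CPM at 19 months (log2 fold change -0.80 with SE 0.17 and an edgeR adjusted p of 0.000964), so the lowest young library was only just above the highest old one. Gap43, a growth cone protein that adult terminals retain, fell by 0.54.

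Cytoskeletal genes followed in part. Of 20 listed, 10 were lower and 2 were higher (median -0.26). The brain tubulin Tubb2a fell by 1.19. Map1b, the first microtubule-associated protein of developing axons (chromosome 13, 99421446 to 99516540, minus strand), fell from 3636, 2930, 3222 and 3206 CPM to 1818, 1968, 2003 and 1971 CPM (log2 fold change -0.74 with SE 0.09 and an edgeR adjusted p of 9.68e-07). The 5 months libraries lay between those groups at 2731, 2473, 2623 and 2424 CPM. The tubulin Tuba8 went the other way, with a rise of 1.34 from 1.74 to 3.56 CPM in the young libraries to 6.08 to 8.07 CPM in the old ones.

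Transcripts of dividing cells were scarce at both ages and scarcer at 19 months. Of 25 cell cycle genes, 18 passed the filter on low counts, 7 were lower, and none was higher. The summed level of the list was 48.7 to 66.3 CPM at 3 weeks and 19.4 to 27.1 CPM at 19 months. At 5 months it was 20.8 to 27.8 CPM. Mki67, the proliferation marker Ki-67, was 13.4, 8.96, 10.2 and 12.3 CPM in the young libraries and 2.18, 2.79, 2.21 and 1.02 CPM in the old ones (log2 fold change -2.43 with SE 0.26 and an edgeR adjusted p of 1.59e-07). The groups did not overlap. Top2a, the topoisomerase of dividing cells, fell by 2.97. Of 28 collagens and laminins of other types than I and III, 7 were lower and none was higher (median -0.26), with Col9a3 lowest at -2.17. The share called was 25%, against 19.4% of all genes tested. Of 15 meningeal fibroblast markers, 3 were lower and 2 were higher. The 3 lower ones were fibrillar collagen chains: Col1a1 fell by 2.95, Col1a2 by 2.39 and Col3a1 by 1.83. The 2 higher ones were Ptgds, a prostaglandin synthase (0.44), and Ogn, a small proteoglycan (0.94). Ptgds lost its call without 19 months replicate 2, and Ogn without any of 5 single libraries (3 weeks replicates 2, 3 and 4, 19 months replicates 2 and 4). The summed level of these markers was 211 to 301 CPM at 3 weeks and 192 to 285 CPM at 19 months.

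Of 27 transcription factors of cortical neurons, 14 were lower and none was higher, with a median of -0.26. The count was 9 without 19 months replicate 4. Neurod1, a factor of young neurons, fell from 7.02, 7.84, 9.73 and 8.09 CPM to 4.13, 4.69, 2.68 and 4.97 CPM (log2 fold change -0.99 with SE 0.21 and an edgeR adjusted p of 0.000996). Every old library lay below every young one. The single lowest fold change by the naming rule belonged to Rnf122, a ubiquitin ligase (chromosome 8, 31111820 to 31131482, plus strand). It measured 10.5, 13.6, 16.1 and 14.1 CPM at 3 weeks and 1.87, 1.07, 1.34 and 1.66 CPM at 19 months, a log2 fold change of -3.20 (SE 0.24, edgeR adjusted p = 1.83e-10). Prom1, the membrane glycoprotein prominin, fell by 2.81. Among the more abundant genes, picked after their values were seen, Apc, a microtubule and Wnt pathway protein, fell by 1.65, the axon guidance relative Nav3 by 1.36 and the DNA methyltransferase Dnmt3a by 1.27.

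Part of the immune transcripts were higher in the old synaptosomes. Of 25 tested complement, class I antigen presentation and interferon response genes, 10 were higher, none was lower and 15 were not called (median 0.47). Of the 25, 7 had fold changes below 0, down to -1.08. C4b, a complement component made by glia (chromosome 17, 34728380 to 34743882, minus strand), measured 7.58, 6.23, 5.60 and 5.63 CPM at 3 weeks and 21.1, 26.8, 24.1 and 18.4 CPM at 19 months. The lowest old library was above the highest young one, and the log2 fold change was 1.86 (SE 0.15, edgeR adjusted p = 9.06e-10). B2m, the light chain of class I antigen presentation, rose from 29.2, 43.7, 39.9 and 40.1 CPM to 65.5, 66.9, 50.7 and 50.1 CPM (log2 fold change 0.61 with SE 0.12 and an edgeR adjusted p of 0.000433). C4b has a near-identical neighbour gene, C4a, so reads of the pair may not be fully separated.

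Of 25 microglial markers, 13 were higher, none was lower and 12 were not called, and all 25 fold changes were above 0 (median 0.60). Lyz2, a lysozyme of myeloid cells, rose from 1.11, 2.00, 1.70 and 2.22 CPM to 8.50, 7.89, 5.92 and 6.31 CPM (log2 fold change 2.01 with SE 0.23 and an edgeR adjusted p of 4.38e-07). Ctss, a lysosomal protease of microglia, rose by 1.303 and the signalling adaptor Tyrobp by 1.26. The 3 chains of C1q, the complement protein that tags synapses, rose by 0.99 (C1qa), 1.11 (C1qb) and 0.60 (C1qc). The C1qc call did not hold without 19 months replicate 1, at 0.45 with an edgeR adjusted p of 0.079. The receptors Cx3cr1 and P2ry12, carried by resting microglia, had log2 fold changes of 0.35 and 0.24 and were not called, and their groups overlapped, though Cx3cr1 passed without 19 months replicate 4 (0.43). Replicate 1 was the highest of the 4 old libraries for C1qa, C1qb, C1qc, Ctss and Tyrobp. Summed over the microglial list the young libraries lay between 229 and 324 CPM and the old ones between 375 and 556 CPM. Without that replicate 12 markers were higher, with a median of 0.49.

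Astrocyte markers did not move together. Of 24, 4 were higher and 3 were lower (29.2% called, against 19.4% of all genes tested). The median was 0.06, with summed levels of 10612 to 13604 CPM at 3 weeks and 10843 to 12143 CPM at 19 months. Gfap, the intermediate filament of reactive astrocytes, measured 203, 196, 188 and 162 CPM at 3 weeks and 230, 246, 234 and 209 CPM at 19 months (log2 fold change 0.29 with SE 0.09 and an edgeR adjusted p of 0.0163). The groups did not overlap, but its call was lost without 3 weeks replicate 4 and without 19 months replicate 2 or 3. Serpina3n, a protease inhibitor of reactive astrocytes, rose by 1.05, Slc4a4 and Sparcl1 by 0.27 and 0.31. The glutamate transporter Slc1a2 fell by 0.34, the gap junction gene Gja1 by 0.28 and Ntsr2 by 0.61, and the ages overlapped for Slc1a2. Serpina3n and Ntsr2 were the 2 of these 7 that passed with each of the 8 libraries left out in turn. Without 19 months replicate 1, Gja1 was at -0.23 (edgeR adjusted p = 0.104). Of 20 endothelial and mural cell markers tested, 1 was higher (Vtn, 0.73) and none was lower, and the endothelial genes Cldn5 and Pecam1 were at most at 1.13 and 1.81 CPM in any of the 8 libraries. None of 8 choroid plexus and ependymal genes and none of 5 red blood cell genes was called.

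**Figure D3:**
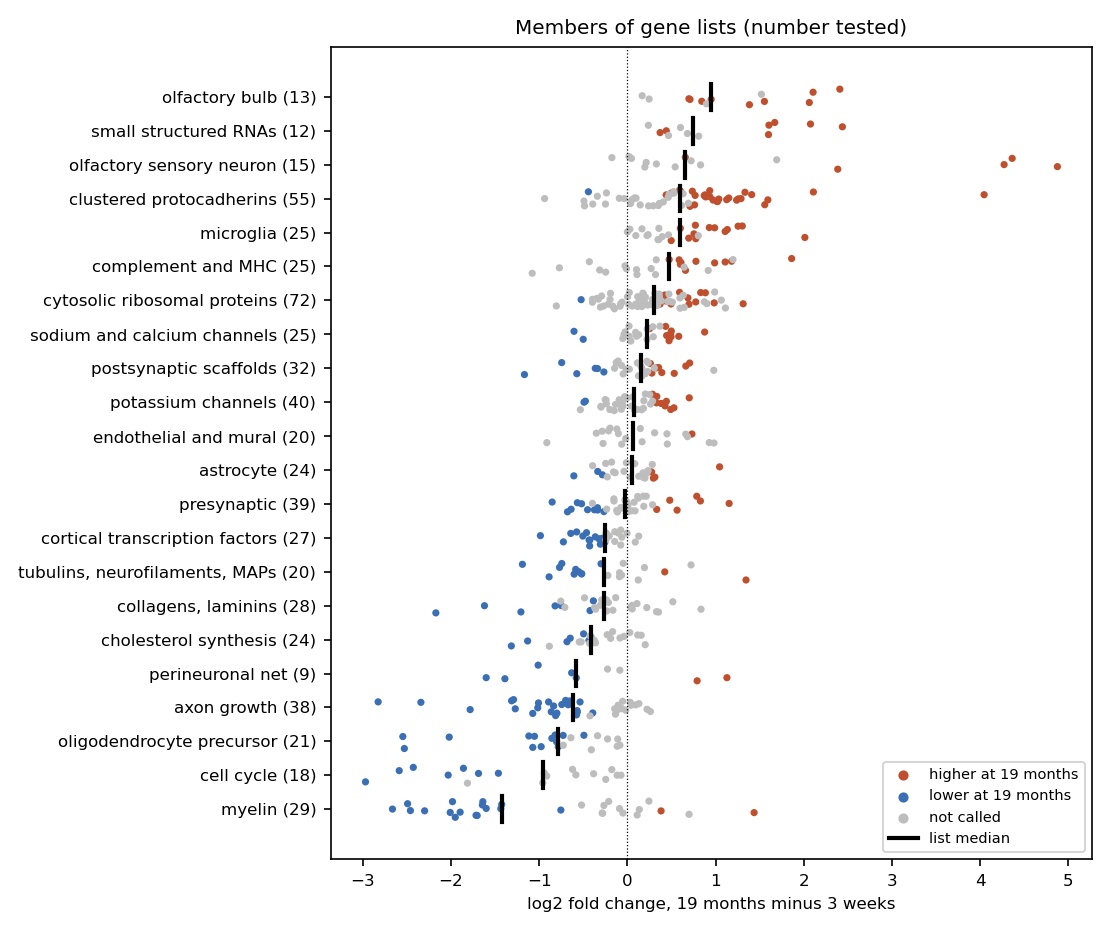
Log2 fold changes (19 months minus 3 weeks) of the tested members of each list as points and the list median as a bar; red marks members called higher, blue those called lower. The myelin, precursor and growth lists lie mostly below 0, the microglial and olfactory bulb lists above 0, and the synaptic lists on both sides.

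Camk2a, Dlg4, Grin2a and Grin2b, fixed among the genes to be named, did not pass the test between ages. Camk2a, the kinase of the postsynaptic density and a marker of dendritic RNA, measured 3652, 2909, 3067 and 3153 CPM at 3 weeks and 3071, 3398, 3661 and 3812 CPM at 19 months. The groups overlapped and the log2 fold change was 0.13 (SE 0.10, edgeR adjusted p = 0.42). With both replicates 1 left out it passed, at 0.26 (edgeR adjusted p = 0.019). Dlg4, which encodes the scaffold PSD-95, had a fold change of -0.13 (SE 0.09, edgeR adjusted p = 0.34). Of 6 NMDA receptor subunits tested, 1 was higher, Grin2c, with 0.34 (SE 0.11, edgeR adjusted p = 0.0337), a call that was lost without 3 weeks replicate 3 (0.28) or 19 months replicate 2 (0.24). Grin2b, the subunit that predominates in young cortex, was 1337, 1725, 1513 and 1540 CPM at 3 weeks and 1302, 1404, 1665 and 1456 CPM at 19 months. Grin2a, the subunit whose share grows as cortex matures, was 361, 507, 471 and 447 CPM and then 470, 476, 549 and 474 CPM. Neither passed the test (log2 fold changes -0.07 and 0.14, SE 0.10 each). The AMPA receptor subunits Gria1 and Gria2 were at 0.25 and 0.13 and did not pass either, though Gria1 did without 3 weeks replicate 2 (0.30) or 19 months replicate 1 (0.32).

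Other postsynaptic genes did change, in both directions. The list of postsynaptic density genes held 31 symbols, which matched 32 tested entries. Of these 32, 8 were higher and 6 were lower (43.8% called against 19.4% of all genes tested, median 0.16). With both replicates 1 left out 15 were higher. Nrgn, neurogranin, which holds calmodulin in spines (chromosome 9, 37544492 to 37552904, minus strand), fell from 450, 509, 544 and 521 CPM to 234, 241, 213 and 213 CPM (log2 fold change -1.17 with SE 0.09 and an edgeR adjusted p of 2.4e-10). Its highest old library had less than any young one. Baiap2, a membrane-bending actin regulator of spines, fell by 0.74. Shank1, a scaffold of mature spines, rose from 1250, 1242, 1236 and 1273 CPM to 1576, 2111, 2144 and 2083 CPM (log2 fold change 0.66 with SE 0.10 and an edgeR adjusted p of 2.92e-05). The young libraries were nearly equal, and old replicate 1 was lower than the other 3. Sipa1l1, a spine regulator of Rap GTPases, rose by 0.71. Of 23 AMPA and kainate receptor genes and their auxiliary subunits, 4 were higher and 2 were lower, all 6 of them auxiliary subunits. The share called, 26.1%, was not far from the 19.4% of all genes tested. Cacng5 rose by 1.42, Cacng7 by 0.51, Gsg1l by 0.39 and Shisa6 by 0.36, while Cacng4 fell by 0.53 and Cacng3 by 0.31. Of these 6, Cacng5, Cacng7 and Cacng4 passed with each of the 8 libraries left out in turn. Without 19 months replicate 1, Cacng3 was at -0.26 (edgeR adjusted p = 0.0984). Of 7 metabotropic glutamate receptors 3 were higher, among them Grm4 (0.50) and Grm8 (0.42), and Grm8 was lost without any of 6 single libraries (3 weeks replicates 2 to 4, 19 months replicates 2 to 4).

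Presynaptic genes changed in both directions. Of 39, 10 were lower and 6 were higher (41% called against 19.4% of all genes tested, median -0.03). Stx1a, the plasma membrane SNARE syntaxin-1A (chromosome 5, 135023482 to 135051100, plus strand), fell from 124, 109, 122 and 135 CPM to 69.7, 66.2, 71.7 and 63.4 CPM (log2 fold change -0.85 with SE 0.09 and an edgeR adjusted p of 1.5e-07). Its SNARE partner Snap25 was 694, 770, 853 and 725 CPM and then 768, 817, 815 and 808 CPM, with overlap and a fold change of 0.08 (SE 0.09, edgeR adjusted p = 0.608). Rab3a, the vesicle GTPase, fell by 0.68 and Syn1, which tethers vesicles to actin, by 0.64. Rims3, a small active zone protein, rose from 38.9, 43.4, 45.2 and 46.3 CPM to 97.9, 94.0, 90.2 and 105 CPM (log2 fold change 1.15 with SE 0.10 and an edgeR adjusted p of 1.77e-09). Syt2, the calcium sensor of fast inhibitory terminals, rose by 0.79 and the vesicle protein Sv2c by 0.83. No library of the 2 ages overlapped for Stx1a, Rab3a, Syn1, Rims3, Syt2 or Sv2c.

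Ion channel genes that changed mostly rose. Of 40 potassium channel genes, 10 were higher and 2 were lower (30% called against 19.4% of all genes tested, median 0.07). The number of higher genes fell to 6, 5 or 6 without old replicate 2, 3 or 4. Of 25 sodium and calcium channel genes, 9 were higher and 2 were lower (44% called, median 0.23). Kcnc1, the Kv3.1 channel of fast-spiking neurons (chromosome 7, 46396497 to 46438704, plus strand), measured 102, 148, 132 and 148 CPM at 3 weeks and 183, 235, 225 and 218 CPM at 19 months (log2 fold change 0.70 with SE 0.11 and an edgeR adjusted p of 3.36e-05). Within each age replicate 1 was the lowest, and the ages did not overlap. Hcn2, of the hyperpolarisation-activated current, rose by 0.88. The axonal sodium channels Scn1a and Scn8a rose by 0.49 and 0.43, and the ages overlapped for Scn8a. Cacna2d3, an auxiliary calcium channel subunit, fell by 0.61. Among abundant genes picked after their values were seen, the endoplasmic calcium release channel Itpr1 rose from 540, 604, 628 and 655 CPM to 978, 1193, 1221 and 1293 CPM (log2 fold change 0.95 with SE 0.10 and an edgeR adjusted p of 8.82e-08), and the synaptic scaffold Git1 rose by 0.99.

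The matrix around synapses changed member by member. Of 9 tested genes of perineuronal nets, the lattice that wraps mature neurons, 5 were lower and 2 were higher (median -0.58). Tnc, tenascin-C of the immature matrix, fell from 10.4, 12.4, 8.81 and 8.75 CPM to 3.66, 3.68, 4.02 and 4.02 CPM (log2 fold change -1.39 with SE 0.19 and an edgeR adjusted p of 7.43e-06). The link protein Hapln1 fell by 1.01, and the proteoglycans Ncan and Bcan by 0.63 and 0.58. Hapln4, the link protein of perisomatic synapses, rose from 13.3, 32.4, 28.5 and 30.3 CPM to 47.9, 64.6, 57.4 and 59.4 CPM (log2 fold change 1.13 with SE 0.21 and an edgeR adjusted p of 0.00209). Acan, aggrecan, the core of mature nets, rose by 0.79.

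Of 24 cholesterol synthesis genes, 7 were lower and none was higher (29.2% called against 19.4% of all genes tested, median -0.41). Hmgcs1, at the entry of the pathway, fell from 201, 238, 248 and 194 CPM to 95.8, 95.1, 78.4 and 84.7 CPM (log2 fold change -1.32 with SE 0.10 and an edgeR adjusted p of 2.1e-10). Mvd, a later enzyme of the pathway, fell by 1.13. Of 77 nuclear genes of oxidative phosphorylation, 10 were lower and 4 were higher, or 18.2% called, near the 19.4% of all genes tested. The number of lower genes was 6 without old replicate 4. None of the 13 mitochondrially encoded mRNAs was called. Without old replicate 1, 8 of the 13 were lower. In that replicate mt-Co1, a subunit of cytochrome oxidase, stood at 21221 CPM, against 9248, 9144 and 8202 CPM in its group and 11944 to 19567 CPM at 3 weeks. Its log2 fold change was -0.39 with that library (edgeR adjusted p = 0.446) and -0.82 without it (edgeR adjusted p = 0.00057).

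By the naming rule, the 3 highest fold changes belonged to markers of olfactory sensory neurons: S100a5, Omp and Stoml3. Of 15 tested markers of olfactory sensory neurons, 5 were higher and none was lower (median 0.66), and of 13 olfactory bulb markers 9 were higher and none was lower (median 0.95). Omp, the olfactory marker protein (chromosome 7, 98143359 to 98145502, minus strand), measured 1.04, 0.668, 0.195 and 0.959 CPM at 3 weeks and 11.6, 14.4, 14.6 and 16.6 CPM at 19 months (log2 fold change 4.36 with SE 0.37 and an edgeR adjusted p of 7.95e-08). S100a5, a calcium-binding protein of the same neurons (chromosome 3, 90608523 to 90611780, plus strand), was 0.626, 1.00, 0.389 and 0.959 CPM and then 23.6, 16.2, 25.2 and 22.5 CPM, a rise of 4.88 (SE 0.65, edgeR adjusted p = 0.000619). All 4 old libraries held both genes above all 4 young ones, which the naming rule required. Stoml3 and Umodl1 of the sensory neuron list rose by 4.27 and 2.39 (Umodl1 was not called without 3 weeks replicate 2 or 19 months replicate 3), and Slc17a6, a vesicular glutamate transporter that other neurons also use, by 0.66. Cdhr1, a cadherin of the bulb's projection neurons, rose by 2.41 and Shisa3 by 2.53. Gad1, the main enzyme of GABA synthesis and a member of the bulb list, which cortex expresses too, rose by 0.70, and Meis2 by 0.84. At 5 months the 4 libraries ranged from 3.37 to 10.8 CPM for Omp and from 1.81 to 15.8 CPM for S100a5. The labels name cerebral cortex for all libraries. The part of attached olfactory tissue in these values was not tested, and the summed bulb markers were 207 to 268 CPM in the young and 419 to 460 CPM in the old libraries.

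Small and long noncoding RNAs were among the genes that rose. Of 12 tested small RNA genes, 7 were higher and none was lower (median 0.74). Rny1 encodes the Y1 RNA, a short polymerase III transcript that binds the Ro60 protein. It is printed whole as the shortest of the small RNAs described here. The gene is a single exon at chr6:47788069-47788180, minus strand of GRCm38, in the GENCODE vM21 annotation.
Rny1: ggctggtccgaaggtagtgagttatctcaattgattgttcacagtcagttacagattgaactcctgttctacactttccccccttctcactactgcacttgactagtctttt
It measured 24.1, 50.7, 42.0 and 40.2 CPM at 3 weeks and 131, 94.4, 143 and 133 CPM at 19 months (log2 fold change 1.67 with SE 0.40 and an edgeR adjusted p of 0.0166). The groups did not overlap, and the call was lost with both replicates 1 left out (1.48, edgeR adjusted p = 0.07). Vaultrc5, a vault RNA, rose by 2.44 and Rmrp, the RNA of the RNase MRP enzyme, by 1.60. For both, 3 weeks replicate 1 was the lowest of all 8 libraries, at 11.0 and 12.8 CPM.

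Among 13 tested long noncoding RNAs, most of them held in nuclei, 3 were higher and none was lower (median 0.66). The share called, 23.1%, was near the 19.4% of all genes tested. The 3 were Peg13 (0.54), Gas5 (0.95) and Mirg (1.40), and Mirg was lost when any 1 of the 8 libraries was left out. Outside that list Lncpint, a noncoding RNA induced by p53, rose from 7.02, 4.62, 5.50 and 6.41 CPM to 25.1, 18.6, 18.6 and 23.4 CPM (log2 fold change 1.87 with SE 0.16 and an edgeR adjusted p of 2.35e-09). Malat1, the abundant RNA of nuclear speckles, measured 420, 489, 484 and 570 CPM at 3 weeks and 1440, 1053, 874 and 1069 CPM at 19 months. These did not overlap, yet the log2 fold change of 1.18 (SE 0.48) did not pass in the model of 12 libraries (edgeR adjusted p = 0.125). One 5 months library, replicate 4, held 4177 CPM of Malat1 against 812 to 1256 CPM in its group, and that library counts in the model's estimate of spread. Without it, or with only the 8 libraries compared, Malat1 passed (edgeR adjusted p = 5.4e-06 and 2e-06), and 8 of the long noncoding RNAs were higher. Meg3 followed the same pattern, with 1.38 and an edgeR adjusted p of 0.0629 in the model of 12 libraries. Whether the amount of nuclear material differed between ages was not tested.

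Of 72 ribosomal protein genes tested, 16 were higher and 1 was lower, Rps2 with -0.52 (median 0.30). The share called was 23.6%, against 19.4% of all genes tested. Rps2 lost its call without 3 weeks replicate 1 or 2 and without 19 months replicate 1 or 4. Without 19 months replicate 1, 11 were higher. Rplp1, of the ribosomal stalk, rose from 99.1, 71.3, 72.8 and 123 CPM to 149, 157, 165 and 155 CPM (log2 fold change 0.77 with SE 0.14 and an edgeR adjusted p of 0.000454). These genes share sequence with many processed pseudogenes, so their counts are uncertain. Of 55 clustered protocadherins, a list added after the data were seen, 28 were higher and 1 was lower, Pcdhgc5 with -0.44 (median 0.60), whose call was lost without any of 5 single libraries (3 weeks replicates 2 to 4, 19 months replicates 1 and 4). Pcdhb2, one of these adhesion proteins, rose from 2.50, 3.23, 2.73 and 2.70 CPM to 12.2, 10.4, 11.4 and 14.4 CPM (log2 fold change 2.11 with SE 0.22 and an edgeR adjusted p of 6.33e-08). Members of the alpha and gamma clusters share their last exons, so reads there may not be assigned to 1 gene.

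The 5 months libraries of synaptosomes and homogenate, of which the homogenates enter no age comparison, describe where the called genes lie. Of 1525 higher genes that could be tested between the fractions, 848 (55.6%) were higher in synaptosomes and 204 (13.4%) were lower. Of 1434 lower genes, 423 (29.5%) were higher in synaptosomes and 314 (21.9%) were lower. Over all 15146 genes tested these shares were 28.0% and 19.2%. Of the genes that rose by a fold of at least 2, 94 of 396 (23.7%) were higher and 130 (32.8%) lower in synaptosomes. Without 5 months synaptosome replicate 4, 843 of 1527 (55.2%) of the higher genes were higher in synaptosomes. Of the myelin list, 11 of 29 were higher in synaptosomes, of the growth list 22 of 37, and of the microglial list 21 of 25. The 4 synaptosome libraries of 5 months also entered the model of the ages, so these shares are a description only.

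**Figure D4:**
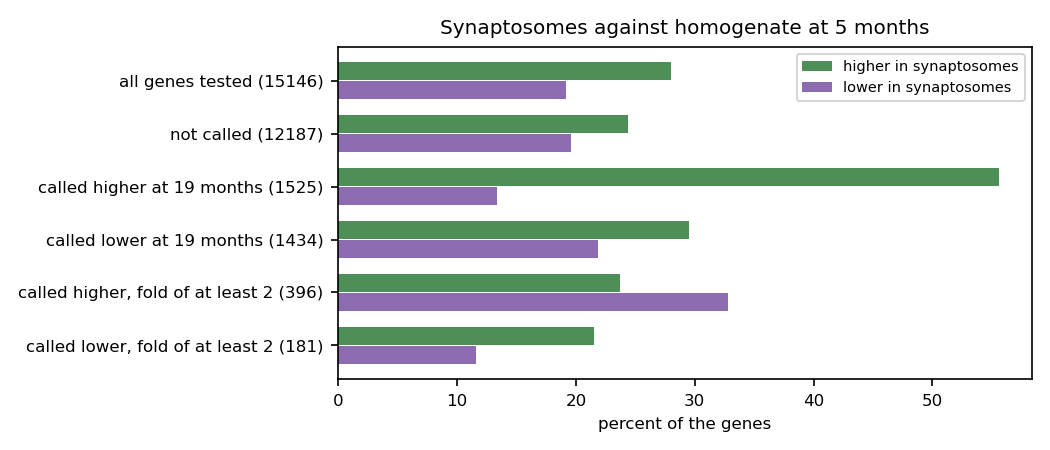
Percent of genes higher (and lower) in 5 months synaptosomes than in 5 months homogenate, at an edgeR adjusted p under 0.05, for all genes tested and for the genes called higher, lower or not called at 19 months against 3 weeks. The bar of genes higher at 19 months reaches 55.6%, against 28.0% over all genes.

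Few genes separated 19 from 5 months. In the same model 20 genes were higher and 26 lower at 19 than at 5 months (0.3%, edgeR adjusted p under 0.05), and 2103 had an unadjusted p under 0.05. Of the 2982 genes called against 3 weeks, 2135 (71.6%) were also called at 5 months against 3 weeks. A fold change of the same sign at 5 months was seen for 2939 of them. Both comparisons share the 3 weeks libraries. Among the 2982 genes, 24 also differed between 19 and 5 months. In 20 of these the 19 months level lay further from 3 weeks, and in 4 it lay nearer. The 20 were not all steady changes, since in some the 5 months level lay on the other side of 3 weeks. Tpt1, for example, was at -0.73 at 5 months and at 0.74 at 19 months, each as log2 fold change against 3 weeks. C1qb was 17.0, 20.8, 14.8 and 13.5 CPM at 5 months and 37.6, 25.7, 26.0 and 23.7 CPM at 19 months, a rise of 0.77 (edgeR adjusted p = 0.0279). Its difference between 3 weeks and 5 months, 0.34, was not called (edgeR adjusted p = 0.131). Slc38a2, a glutamine and alanine transporter, was at 34.6, 44.5, 38.3 and 38.6 CPM and then at 51.2, 65.7, 62.9 and 65.0 CPM (0.65, edgeR adjusted p = 0.0216). Map1b was lower at 19 months by a further -0.40 (edgeR adjusted p = 0.0474). Plec, a cytoskeletal linker, went back towards its young level, from 678, 677, 679 and 604 CPM at 5 months to 466, 464, 484 and 464 CPM (-0.49, edgeR adjusted p = 0.0117). The number of genes called against 3 weeks that also differed from 5 months was 2 without 19 months replicate 1, and it ran from 0 to 118 when single libraries were left out.

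Splicing was compared from the authors' deposited tables of LeafCutter, which groups introns that share splice sites into clusters and tests how their usage shifts. Between 3 weeks and 19 months the authors' deposited table gives 201 of 4176 tested clusters (4.81%) an adjusted p under 0.05. Their median largest change in intron usage was 0.143, on a scale of fractions, against 0.0501 for clusters not called. The calls rest on that same usage, so these medians describe size only. In the authors' deposited tables of the other pairs, 281 of 4250 clusters (6.61%) were called between 3 weeks and 5 months and 31 of 4037 (0.768%) between 5 and 19 months, and each pair shares libraries with the main one. Of 196 genes with a called cluster that were tested for level, 34 were higher and 44 were lower. The share called for level was 39.8%, against 29.9% of the 2532 genes with any tested cluster. A cluster that spans several genes counts for each of them, and a single called cluster spans the gamma protocadherins. Nfasc held 6 called clusters, more than any other gene, Ank3 and Rims2 held 3 each, and Mbp and Cadps were among 7 genes with 2. The smallest adjusted p in the authors' deposited table belonged to Bcas1, a gene of newly myelinating cells (3.21e-14), Rims1, an active zone scaffold (2.08e-13), and the noncoding host gene Snhg14 (6.55e-11).

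From the same intron usage fractions, the inclusion of cassette exons (exons that are either kept or skipped) was computed as the mean usage of the 2 introns that join the exon over that mean plus the usage of the skipping intron. The authors give 1 usage per age, so these values carry no SD. Of 62 cassette exons in called clusters, 37 were included more and 25 less at 19 months, against 574 more and 532 less among 1106 in all tested clusters. The lengths of 44 of the 62 (71.0%) were multiples of 3, near the 72.2% of all tested. Their median length was 74.5 bases, against 87 over all tested.

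**Figure D5:**
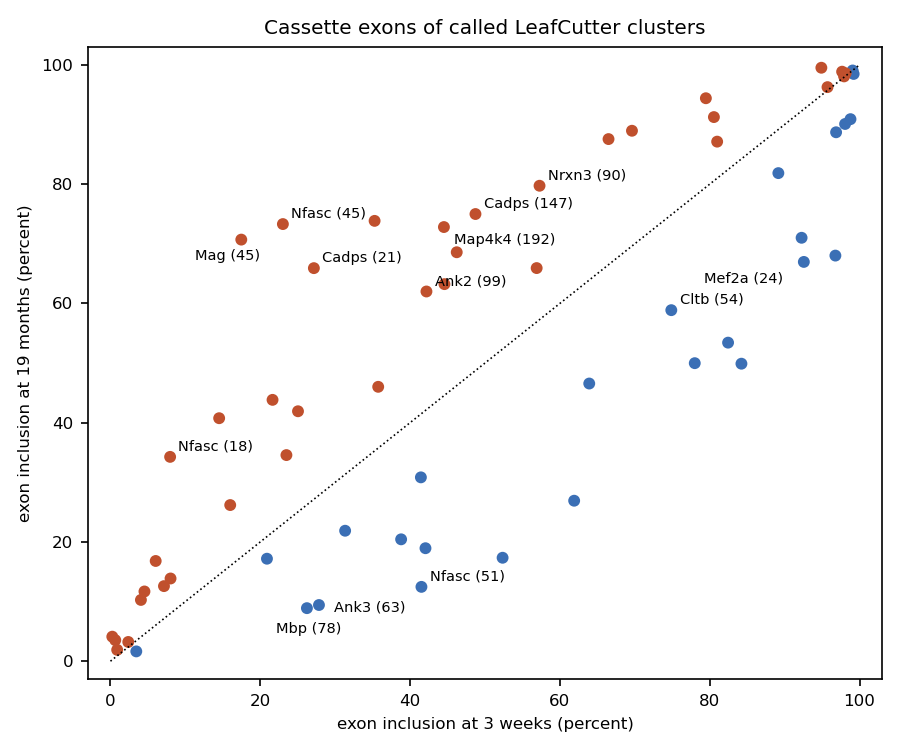
Inclusion of 62 cassette exons of called clusters, in percent at 3 weeks (horizontal) and 19 months (vertical), from the authors' usage fractions; exons above the dotted line of equality (red) were included more at 19 months. Labels give the gene and the exon length in bases. Mag (45) and Nfasc (45) lie far above the line, and Mbp (78), Ank3 (63) and Nfasc (51) far below.

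Among the 62, the exons of 45 bases in Mag and Nfasc, genes of myelin and of the axon's nodes, moved by the most points. They and 2 further Nfasc exons are printed because each is a short, discrete stretch that the old and the young RNA hold in different proportions. Capitals mark the alternative exon and lower case 15 bases of its neighbours in the transcript, all from GENCODE vM21 transcripts on GRCm38 and read 5′ to 3′.
Mag exon: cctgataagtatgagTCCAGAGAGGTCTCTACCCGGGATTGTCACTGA
Nfasc exon of 51 bases: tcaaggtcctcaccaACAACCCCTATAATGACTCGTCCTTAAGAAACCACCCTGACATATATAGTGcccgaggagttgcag
Nfasc exon of 45 bases: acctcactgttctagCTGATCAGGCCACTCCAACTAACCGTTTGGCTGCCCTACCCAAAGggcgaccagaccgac
Nfasc exon of 18 bases: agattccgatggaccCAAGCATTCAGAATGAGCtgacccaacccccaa
The Mag exon lies at chr7:30900352-30900396 on the minus strand. It carries an in-frame stop, the last 3 capitals, so only its first 33 bases are shown, and its inclusion gives the short form of this adhesion protein. By the authors' deposited table its inclusion was 17.5% at 3 weeks and 70.7% at 19 months (cluster adjusted p = 6.89e-06). Mag RNA as a whole fell over the same interval, from 174, 256, 262 and 261 CPM to 35.8, 61.9, 56.3 and 39.1 CPM. In Mbp, an exon of 78 bases fell from 26.2% to 8.90% (authors' deposited table, adjusted p = 1.74e-06), while total Mbp fell too.

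Nfasc encodes neurofascin, an adhesion protein of nodes, paranodes and axon initial segments whose glial and neuronal forms differ by alternative exons. All 3 of its exons printed above lie on the minus strand of chromosome 1, and all are a multiple of 3 in length. In the authors' deposited table the exon of 51 bases (chr1:132627872-132627922) went from 41.5% inclusion to 12.5%, with an adjusted p of 1.79e-06. The exon of 45 bases (chr1:132607003-132607047) went the other way, from 23.02% to 73.3% (authors' deposited table, adjusted p = 3.37e-05). The microexon of 18 bases (chr1:132637864-132637881) rose from 7.97% to 34.3% (authors' deposited table, adjusted p = 0.00034). Nfasc RNA was 413, 531, 551 and 595 CPM in the young and 204, 254, 240 and 212 CPM in the old libraries, a fall of 1.20 (SE 0.10, edgeR adjusted p = 1.99e-09).

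Neuronal genes had exon changes as well. They are shown for genes whose products act at the synapse or the axon.
Ank3 exon: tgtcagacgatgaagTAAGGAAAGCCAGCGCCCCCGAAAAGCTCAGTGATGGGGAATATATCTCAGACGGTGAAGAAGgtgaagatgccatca
Cltb exon: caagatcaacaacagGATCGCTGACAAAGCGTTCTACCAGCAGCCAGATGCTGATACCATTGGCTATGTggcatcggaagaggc
Nrxn3 exon: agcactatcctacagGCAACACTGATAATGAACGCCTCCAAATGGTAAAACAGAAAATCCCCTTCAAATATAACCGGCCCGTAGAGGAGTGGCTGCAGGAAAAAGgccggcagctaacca
Mef2a exon: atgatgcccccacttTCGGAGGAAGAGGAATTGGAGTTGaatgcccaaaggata
Cadps exon: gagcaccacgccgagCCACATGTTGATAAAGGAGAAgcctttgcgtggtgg
Ank3, ankyrin-G, anchors sodium channels at the axon initial segment and nodes, and its exon of 63 bases (chr10:69904448-69904510, plus strand) fell from 27.8% to 9.42% in the authors' deposited table (adjusted p = 0.0123). Cltb is a clathrin light chain of endocytic vesicles with a neuronal exon of 54 bases (chr13:54597026-54597079, minus strand). That exon fell from 74.9% to 58.9% (authors' deposited table, adjusted p = 0.000473). Between 3 weeks and 5 months the same cluster had an adjusted p of 0.588, and between 5 and 19 months one of 0.0185. Nrxn3, a presynaptic adhesion protein, included its exon of 90 bases (chr12:90199147-90199236, plus strand) more, from 57.3% to 79.7% (authors' deposited table, adjusted p = 0.0398). Mef2a and Cadps were picked after their values were seen. In Mef2a, an activity-dependent transcription factor, an exon of 24 bases (chr7:67244521-67244544, minus strand) fell from 92.6% to 67.0% (authors' deposited table, adjusted p = 0.00107). As for Cltb, the authors' deposited tables give this cluster an adjusted p of 0.391 between 3 weeks and 5 months. Between 5 and 19 months they give it 0.0145. In Cadps, a priming factor of dense core vesicles, an exon of 21 bases (chr14:12468346-12468366, minus strand) rose from 27.2% to 65.9% (authors' deposited table, adjusted p = 0.0422).

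The authors also deposited a table of DIEGO, a second method, with a p-value and a q-value per splice junction. A q under 0.05 is given in the authors' deposited table to 640 of 92746 junctions (0.69%) in 527 genes. All 640 share the same p of 0.0209 and q of 0.0489, the smallest in the file, none passed a q of 0.01, and the file's own column marks none as significant. The tie means that DIEGO ranks no gene above another. With Benjamini-Hochberg adjustment over all 92746 junctions this p could not give a q of 0.0489. The q is therefore not read here as an error rate over the file. Of 601 introns of called LeafCutter clusters found in both of the authors' deposited tables, 60 (9.98%) had a DIEGO q under 0.05, against 1.15% of all introns in both. The genes named by both methods numbered 56, which was 10.6% of the DIEGO genes and 26.5% of the LeafCutter genes.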

How the data were processed

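RNA of synaptosome libraries was compared between 19 months and 3 weeks. The authors deposited whole-number counts of reads per gene. Per the submitters' processing notes, bcl2fastq 2.20.0.422, cutadapt 1.18, Trimmomatic 0.38 and featureCounts of Subread were used on GRCm38.p6; no source used here names the aligner or strand setting. Per the labels' protocols, rRNA of the cytosolic ribosome was depleted before library making, which leaves the mitochondrial rRNAs. Genes on opposite strands and near-identical copies may share reads. The authors' deposited LeafCutter tables hold a p-value per cluster and usage as a fraction per intron and age, and the authors' deposited DIEGO table p-values, q-values and a score of abundance change per junction, the last of unstated sign and not printed.

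The 12 synaptosome libraries were fitted together in edgeR 4.0.16 under R 4.3.3, after filterByExpr (grouped by age) and TMM scaling, and ages were contrasted by its robust quasi-likelihood F test. A call means a Benjamini-Hochberg adjusted p below 0.05. CPM use TMM-scaled library sizes. The fit was tested on simulated data. The 5 months fractions were compared with the same test. The main model did not take replicate numbers as pairs. Same-numbered libraries of both ages correlated at 0.168, -0.005, 0.010 and 0.080 after group means were removed. All pairs across the 2 ages ran from -0.191 to 0.168, so the replicates 1 were the highest pair. The 5 months libraries were not part of this check. Whether equal numbers mark a shared preparation was not tested, and a replicate block is given among the alternatives. No 2 libraries were copies of each other.

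The members and the 40 gene lists were chosen with earlier results of these data known, and 1 list was added after. Named genes are the 10 highest and 10 lowest fold changes among called genes of at least 5 CPM without overlap between ages, up to 3 called members per list, genes that lead the LeafCutter table by adjusted p, a fixed set of synaptic, glial and sex genes and fixed splicing candidates; the text gives a choice of these, and some are not reported here. Other members are named where few of a list were called, after their values were seen. Alternatives were DESeq2 1.42.0 size factors and Wald test, upper-quartile scaling, the mitochondrial genome removed, other filters, a replicate block, fewer libraries and stricter thresholds; leaving out both replicates 1 was chosen after seeing the data. Gene names and sequences come from GENCODE vM21.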

Additional observations from a re-analysis of the deposited data

Results flagged for a closer look

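Sets of 4 libraries were formed per age for each named gene and for the mitochondrial rRNA share. Of these 340 sets, 32 held a library that lay apart from the other 3 by Dixon's criterion, where chance gives about 5%. In 19 months replicate 1 the mitochondrial rRNA share was 52.3% against 32.9% to 33.6%, and mt-Co1 was at 21221 CPM against 8202 to 9248 CPM. The same library was the lowest of its group for Shank1 (1576 CPM against 2083 to 2144), Sv2c (65.6 against 90.2 to 94.6), Acan (7.87 against 10.4 to 10.9), Sparcl1 (2432 against 2772 to 2835), Laptm4b (14.0 against 20.1 to 20.3) and Khdrbs3 (109 against 126 to 129). It was the highest for Dnmt3a (87.8 against 70.7 to 72.2).

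In 3 weeks replicate 1, Cldn11 (65.4 CPM against 132 to 136), Mag (174 against 256 to 262), Prom1 (6.68 against 10.8 to 11.2), Col1a2 (25.2 against 36.9 to 37.8) and Laptm4b (5.91 against 11.6 to 12.5) were low, and Apc (4138 against 2291 to 2586), Rims2 (242 against 153 to 164), Meis2 (112 against 77.1 to 83.0) and Top2a (7.02 against 4.33 to 4.62) were high. In 3 weeks replicate 2, Acan was at 7.01 CPM against 5.21 to 5.51 and Snhg14 at 230 against 195 to 198. In 3 weeks replicate 3, Mbp was at 2892 CPM against 2041 to 2162. In 3 weeks replicate 4, Gpr17 was at 147 CPM against 110 to 116 and Dusp6 at 26.3 against 19.1 to 20.2.

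In 19 months replicate 2, Mt3 was at 47.4 CPM against 51.2 to 51.8. In 19 months replicate 3, Col1a2 was at 4.10 CPM against 7.10 to 7.64, Plec at 484 against 464 to 466 and Grin2a at 549 against 470 to 476. In 19 months replicate 4, Gad1 was at 115 CPM against 100 to 101, Gpr17 at 24.9 against 31.0 to 32.1, Rab3a at 82.9 against 93.6 to 94.8, Hapln1 at 12.8 against 10.6 to 10.9 and Bhlhe41 at 18.8 against 21.8 to 22.3. What set these libraries apart was not tested.

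The change from 3 weeks differed between 19 and 5 months, by the test of that difference, for C1qb (0.77), Slc38a2 (0.65), Map1b (-0.40) and Plec (-0.49).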

How the results depend on the processing

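The counts of 1534 higher and 1448 lower genes stayed within 1.5 times under the alternatives of scaling, filter, fitted libraries and test that were run. With a fold of at least 2 they were 405 and 195, and at an adjusted p under 0.01 they were 854 and 831. When each of the 8 compared libraries was left out in turn, the higher genes numbered 1071 to 1592 and the lower genes 1039 to 1374. Without 5 months replicate 4, which entered the fit but not the comparison, they were 1647 and 1526. A replicate block gave 1752 and 1642. Among named genes it ended the call of Cd63 (1.07, edgeR adjusted p = 0.0569), let mt-Co1, Gria1 and Meg3 pass, and changed no other call. Of 148 named calls, 32 were lost when at least 1 of the 8 libraries was left out, 6 of them without 19 months replicate 1, and none reversed. Counts with both replicates 1 left out were 1588 and 1326. The share of called genes that were higher was 51.4%, and 67.5% with a fold of at least 2.

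The 24 genes that also differed between 19 and 5 months were the least stable count. It was 128 with no filter, 120 with the replicate block, 2 without 5 months replicate 4, 99 with both replicates 1 left out, 129 by the DESeq2 Wald test, 14 at an adjusted p under 0.01 and 1 with a fold of at least 2. It ran from 0 to 118 with single libraries left out, 118 without 3 weeks replicate 1, 2 without 19 months replicate 1 and 0 without 19 months replicate 3. The cause was not tested. The difference in mitochondrial rRNA share ran from -7.35 to -13.8 points with single libraries left out, and as a ratio to counts outside the mitochondrial genome it was -0.273 (exact permutation p = 0.229).

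LeafCutter clusters fell from 201 to 50 at an adjusted p under 0.01 in the authors' deposited table, and DIEGO junctions from 640 to 0 at a q under 0.01. The 405 genes that rose by a fold of at least 2 had a median of 1.87 CPM, and how depth bears on their calls was not tested.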

Other observations

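In 3 further lists the share of genes called was below the 19.4% of all genes tested: 17.5% of 40 adhesion genes, 16.7% of 18 GABA receptor and inhibitory synapse genes and 3 of 23 neuropeptide and interneuron genes. Of the adhesion genes 5 were higher and 2 were lower. The teneurins Tenm1, Tenm3 and Tenm4, which bridge the synaptic cleft, rose by 0.40, 0.61 and 0.55, Flrt1 by 0.55 and Nrxn3 by 0.38, while the cadherins Cdh13 and Cdh10 fell by 0.87 and 0.36. Nrxn3 was not called without 19 months replicate 2 or 3, Tenm1 without 19 months replicate 2, and Cdh10 without any of 5 single libraries (3 weeks replicates 2 to 4, 19 months replicates 2 and 4). Of the 18 inhibitory synapse genes, Gabrb1 and Gabrg1 rose by 0.33 and 0.67 and Gphn, the inhibitory scaffold gephyrin, fell by 0.36; Gabrb1 was lost without 3 weeks replicate 4 or 19 months replicate 3, and Gphn without 3 weeks replicate 3 or 19 months replicate 4. Without 19 months replicate 1, 5 of the 18 and 4 of the 23 were higher. Of the 23 neuropeptide and interneuron genes, Gad1 and Crh, corticotropin-releasing hormone, rose by 0.70 and 1.00 and the calcium buffer Calb1 fell by 0.98.

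Lysosomal genes divided between 5 higher and 8 lower of 30 (43.3% called), and 20 of the 30 fold changes were below 0 (median -0.08). Only higher genes are named here, which go against the greater part of the list. Ctss, a lysosomal protease of microglia, rose by 1.303, Laptm4b by 0.83, and Ctsd and Lamp2 by 0.55 and 0.40. Among 12 tested genes of activated microglia, 5 were higher, Gpnmb (2.09), Spp1 (1.14), Cd63 (1.06), Ctsd (0.55) and Apoe (0.39), and Cd9 was lower (-0.80). Of 27 tested antioxidant and iron handling genes, 1 was higher, 4 were lower and 22 were not called (median -0.007). The share called, 18.5%, was near the 19.4% of all genes. The metallothionein Mt3 rose by 0.58, while Mt1 and Mt2 fell by 0.41 and 0.66 and the transferrin receptor Tfrc by 0.69. Of 28 chaperones 8 were lower and 1, Bag3, was higher (0.76), or 32.1% called. Bag3 went against most of its list, since 23 of the 28 fold changes were below 0 (median -0.14). Of 22 immediate early genes (27.3% called), Fosb (1.03), Fosl2 (0.70), Nr4a3 (0.60) and Egr3 (0.36) were higher, and Btg2 (-1.01) and Dusp6 (-0.46) were lower. Of 18 circadian genes 2 were called (11.1%, against 19.4% of all genes): Per1 and Bhlhe41 rose by 0.59 and 0.57, and 6 of the 18 had fold changes below 0, down to -0.63. Of 27 splicing regulators (18.5% called), Khdrbs3 (0.48), Celf4 (0.31) and Rbfox2 (0.30) were higher, and Elavl4 (-0.66) and Qk (-0.35) were lower. Calls in this paragraph that were lost when at least 1 single library was left out were those of Lamp2, Cd63, Mt1, Bag3, Btg2, Dusp6, Egr3, Celf4, Rbfox2 and Qk. All calls in these 2 paragraphs are from edgeR at an adjusted p under 0.05, with 4 libraries per age.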
